A study of Mus musculus with 6 samples.

Results

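The genes described here are 43 genes of DNA replication and S phase. They encode the proteins that license and unwind replication origins, copy the DNA, supply its nucleotides and restore its chromatin, together with E2F transcription factors of the S phase programme. Their transcripts were measured in NKp46+ cells of 3 mouse tissues. Members were found by gene symbol on Illumina mouse BeadChips, on which a bead-bound probe reports the brightness of labelled RNA. Cdc45l, Orc1l, Orc2l and Orc6l were taken as Cdc45, Orc1, Orc2 and Orc6, and of several probes of a gene the one with the highest mean signal was used. Of the 43 members, 40 had a probe under these symbols. In 37 of the 40, some tissue had the probe detected on both of its arrays (detection p under 0.01), and these 37 were tested among 13455 genes. On all 6 arrays 32 of them were detected, while Orc1, Cdc45, Pole, Rrm2 and E2f2 were detected on 3 to 5. Gmnn and Pola1 were detected on no array and Mcm10 on 1 skin array, so these 3 were not tested. Probes of Rfc1, Cdt1 and Dut were present under the older symbols Recc1, Ris2 and Dutp, and are counted separately.

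All cells came from male RAG-2-KO mice on C57BL/6, 12 weeks old, which lack T and B cells because they cannot rearrange antigen receptor genes. The labels call them NK cells, sorted as positive for CD45, Nkp46 and NK11 (so spelled) and negative for CD3. The groups were spleen, intestine (lamina propria lymphocytes, gut for short) and skin, each with 2 arrays, I and II, so that spleen served as reference for the gut and skin cells and no group carried another allele or a treatment. The labels do not say whether I and II came from separate mice, so a p-value here reflects how far these arrays spread, and that spread may be technical.

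A cell copies its genome once per division. In G1 the origin recognition complex, Cdc6 and Cdt1 load rings of the MCM helicase onto origins, and in S phase these rings are activated with Cdc45 and GINS and open the DNA for the polymerases. Many of the genes involved are switched on together at the start of S phase by E2F factors once the retinoblastoma protein has been released from them, so that their transcripts are low in resting lymphocytes and high in dividing ones.

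Promoter sequence was available in RefSeq (build GRCm38.p6) for 38 of the 43 members. There was no entry for Gmnn, Mcm4, Rfc2, Prim2 and Pole. Each promoter of 300 bases, from 250 before to 50 after the transcript start, was searched on both strands for 4 words of the E2F site, TTTCCCGC, TTTGGCGC, TTTCGCGC and TTTGCCGC. A gene with several promoters was counted if any of them held a word. Among tested genes with a promoter entry, a word occurred in 39.4% of 33 members and in 4.74% of 8338 genes. At least 1 word occurred in 15 of the 38 members (39.5%), against 2.6% of 27025 genes with a promoter in the table (2.26% of its 32851 promoters). The 15 were Orc1, Cdc6, Cdt1, Mcm3, Mcm5, Mcm6, Mcm7, Rfc3, Pola1, Pold1, Lig1, E2f2, E2f3, Uhrf1 and Dnmt1. A match is a description of the letters and not a site or a cause. The following lines give the bases before the start in 6 of them, read 5′ to 3′ on the gene's strand with the E2F words of either strand in capitals. Mcm5, Mcm6, Cdc6 and Uhrf1 stand for members that were higher in skin than in both other tissues, Mcm7 for one lower in intestine than in skin, and Rfc3 for one that was called in no comparison. In Mcm5 and in Mcm6, 2 words of opposite strands overlap and appear as 1 run of capitals. The windows are chr8:75109309-75109508 (+) for Mcm5, chr1:128359706-128359855 (-) for Mcm6, chr5:138171884-138172083 (-) for Mcm7, chr11:98908001-98908150 (+) for Cdc6, chr17:56304113-56304312 (+) for Uhrf1 and chr5:151651209-151651308 (-) for Rfc3.
Mcm5: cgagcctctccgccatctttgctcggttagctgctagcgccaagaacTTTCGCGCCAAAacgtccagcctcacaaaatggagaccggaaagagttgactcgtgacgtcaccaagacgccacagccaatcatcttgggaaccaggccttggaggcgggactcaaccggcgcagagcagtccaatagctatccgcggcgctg
Mcm6: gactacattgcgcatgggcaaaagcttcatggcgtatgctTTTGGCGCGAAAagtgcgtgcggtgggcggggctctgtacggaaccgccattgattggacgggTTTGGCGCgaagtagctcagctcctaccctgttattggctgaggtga
Mcm7: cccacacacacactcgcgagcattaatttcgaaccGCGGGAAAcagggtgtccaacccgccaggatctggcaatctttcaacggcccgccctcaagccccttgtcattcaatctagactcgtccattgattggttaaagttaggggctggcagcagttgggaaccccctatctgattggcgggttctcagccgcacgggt
Cdc6: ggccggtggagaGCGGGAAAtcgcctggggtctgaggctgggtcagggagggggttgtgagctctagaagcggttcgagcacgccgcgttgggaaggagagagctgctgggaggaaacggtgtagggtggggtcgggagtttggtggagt
Uhrf1: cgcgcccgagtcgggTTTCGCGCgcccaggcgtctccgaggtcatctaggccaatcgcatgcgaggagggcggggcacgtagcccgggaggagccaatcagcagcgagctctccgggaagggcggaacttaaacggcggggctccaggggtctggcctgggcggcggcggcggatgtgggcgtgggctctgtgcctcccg
Rfc3: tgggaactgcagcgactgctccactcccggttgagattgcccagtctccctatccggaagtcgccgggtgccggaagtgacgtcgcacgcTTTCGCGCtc

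In Mcm5 the overlapping words lie at -153 to -142 from the start, and in Mcm6 at -110 to -99 with a further word at -47 to -40. The word of Cdc6 lies at -138 to -131, that of Uhrf1 at -185 to -178, that of Mcm7 at -165 to -158 and that of Rfc3 at -10 to -3. Mcm7 and Rfc3 each hold another word just after the start, which is not shown. Uhrf1 and Mcm7 each have 2 promoters on record, and the one with the most words was shown. The other promoter of each holds no E2F word. The CCAAT box occurred in 65.8% of the members' promoters against 41.1% of all genes. The CHR element TTTGAA, known from promoters of mitotic genes, occurred in 15.8% of the members, 20.2% of all genes and 81.1% of 37 mitosis and spindle genes with an entry. Among tested genes with an entry, the CCAAT box occurred in 66.7% of 33 members and 42.9% of 8338 genes. The CHR element occurred in 18.2% and 14.8% of these. The E2F words in turn occurred in 8.11% of these mitotic genes and in 35% of 40 other replication genes with an entry. Of the members tested, 13 with a word had a median skin minus spleen log2 difference of 0.66 with 10 called higher (76.9%). The 20 without one had 0.45 with 11 called higher (55%). Of all tested genes, 395 with a word had a median of 0.01 with 17.2% called higher. The 7943 without one had 0.02 with 13%.

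On the arrays 15196 to 18530 of 46643 probes were detected, most in spleen, and replicate arrays correlated at 0.986 to 0.995 across genes. The sort was checked by its own genes. Klrb1c, which encodes NK1.1, had deposited signals of 2310 and 2070 in spleen, 978 and 1070 in gut and 2120 and 2000 in skin. Ncr1, which encodes NKp46, had 88.2 and 52.9, 10.8 and 14.7, and 33.1 and 32.4 for these tissues, and Cd3e, a gene of the CD3 used to sort cells out, was detected on no array. Other CD3 genes were detected on all 6, Cd3d at 203 and 153 in spleen, 123 and 113 in gut and 108 and 137 in skin, and Cd3g at 109 and 81.4, 312 and 597, and 54.6 and 59.4. Cd3g was higher in intestine by 2.35 ± 0.25 than in spleen and by 2.68 ± 0.25 than in skin (adjusted p = 5.41e-05 and 2.95e-05). Of 14 NK cell markers 13 were tested. In intestine 11 of these were lower than in spleen (28.4% of all genes), Il2rb was higher (0.53 ± 0.20, adjusted p = 0.0483) and Tbx21 did not pass. Another 2 counts were 9 lower in intestine than in skin (22.9% of all genes) and 5 lower in skin than in spleen (11.5%), with 0 higher in either.
Markers of other cells differed between tissues as well. Of 22 erythroid markers on the array 14 were detected on some array, and their signals summed to 12400 and 18300 in spleen, 3390 and 2640 in gut and 1430 and 1210 in skin (Klf1 and Epor detected on none). The globins Hbb-b1 and Hba-a1 led the sum in spleen, and Car2, which encodes a carbonic anhydrase, led it in intestine at 1900 and 1670 (607 and 569 in spleen, 236 and 233 in skin). Of 10 erythroid markers tested, 6 were lower in intestine than in spleen (28.4% of all genes). Car2 and the transferrin receptor gene Tfrc were higher in intestine than in spleen by 1.68 ± 0.13 and 2.29 ± 0.18 (adjusted p = 6.82e-06 and 8.36e-06). Of 23 macrophage and dendritic cell markers 17 were detected on some array, summing to 1420 to 1430 in spleen, 1020 to 1220 in intestine and 882 to 895 in skin, with Csf1r, Fcgr1 and Cd14 on none. Of these 17, 10 were lower and 5 higher in intestine than in spleen (28.4% and 21% of all genes). In skin 9 were lower than in spleen and 0 higher (11.5% and 13.1% of all genes). Fcgr2b and Vcam1 fell most in intestine against spleen (-3.26 ± 0.15 and -1.99 ± 0.19), and Zbtb46 rose most (2.28 ± 0.15). C1qa, C1qb, C1qc, Adgre1, Mrc1, Lyz2 and Vcam1 were detected on both spleen arrays and on no other. These genes passed the filter through spleen alone, so their lower calls in intestine and skin were set by the filter and are no support. Neutrophil and mast cell markers summed to 291 to 430 in spleen, 1390 to 1420 in intestine and 129 to 140 in skin. Kit, which innate lymphoid cells also express, made up most of each sum (1400 and 1370 in intestine), and Mpo, Elane and Cpa3 were on none. The neutrophil genes S100a8, S100a9 and Ltf were detected on spleen array II alone, at 81.1, 37.4 and 12.5. Gut epithelial markers summed to 84.6 to 196 and keratinocyte and fibroblast markers to 54.9 to 122 over all arrays. Epcam, Krt8, Krt5, Krt14 and Col1a1 were detected on none. Cdh1 had 61.1 and 84.5 in gut (2.70 ± 0.16 over spleen) and 8.96 and 5.98 in skin. Dcn had 45.7 and -2.53 in gut and 34.2 and 17.1 in skin (skin minus spleen 1.76 ± 0.58, adjusted p = 0.0499). Of 5 tested genes in each list, 2 were higher in intestine than in spleen (21% of all genes) and 2 higher in skin than in spleen (13.1%). Krt10 was lower in intestine than in spleen. T cell receptor markers summed to 952 to 1210 (Cd4 and Cd5 on none), with members going both ways. Beside Cd3g, Cd8a was higher in intestine than in spleen (1.19 ± 0.26), and Cd247 and Cd8b1 were lower (-1.07 ± 0.15 and -0.43 ± 0.13). Their part in the differences described next was not tested. In RNA of bulk cells, fewer cells that carry a transcript and less of it per cell cannot be told apart.

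Replication transcripts were more abundant in skin NKp46+ cells than in spleen cells. Of the 37 members tested, 22 were higher in skin, 1 (Rpa3) was lower and 14 did not pass, where 13.1% of all genes were called higher and 11.5% lower (24.6% in either direction). Levels are given as log2(signal + 16) after quantile normalisation, a difference is between means of 2 arrays on that scale with its standard error, and a gene was called where its limma p, adjusted by Benjamini-Hochberg over all 13455 genes, was under 0.05. On this scale a probe without signal sits near 4, and differences of dim genes are understated. The median difference of the 37 was 0.60 (all genes 0.00). Uhrf1, E2f1, Tk1, Mcm5, Chaf1a and Pole rose at least 2-fold, 6 members where 1.43% of all genes were called with such a rise, and 0 fell so far (1.17%). Both skin arrays lay above both spleen arrays in 30 members (36.8% of all genes) and below them in 3 (34.9%). Among the 32 members detected on all 6 arrays, 18 were higher and 1 lower with a median of 0.52, beside 14.5% and 10% of 9374 such genes and a median of 0.05. The number of calls fell when a spleen or skin array was left out, while the members' median stayed at 0.51 to 0.64. The 22 became 11 without spleen replicate I, 9 without spleen replicate II, 11 without skin replicate I and 15 without skin replicate II, while calls of higher genes in all fell from 1769 to 280, 260, 484 and 1139. Chaf1a, Chaf1b, E2f1, Lig1, Mcm5, Rrm1, Tk1 and Uhrf1, 8 of the 22, passed whichever array was left out. With the deposited scaling alone the split was 17 higher and 3 lower (36% of all calls higher in place of 53.4%), and with median scaling 24 and 1 (71.1%). The all-gene median was -0.12 and 0.11 under these 2 scalings, and the members' median 0.38 and 0.61. Replicates I and II lay on separate slides, and within slide 1 and slide 2 the members' median was 0.50 and 0.51.

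Intestine cells carried the replication transcripts at lower levels than skin cells. In this comparison 26 of the 37 were lower in intestine, 2 (E2f3 and Rpa2) were higher and 9 did not pass, where 22.9% of all genes were called lower and 16.4% higher (39.3% in either direction). The median difference was -0.84 (all genes -0.08), and 14 members fell at least 2-fold, where 5.27% of all genes did. Both intestine arrays lay below both skin arrays in 27 members (38.6% of all genes) and above them in 3 (27.3%). Of the 32 members detected everywhere, 23 were lower and 2 higher (71.9% and 6.25%), beside 27.3% and 18% of 9374 such genes. Leaving out single arrays kept 25 of the 26 calls, the exception being Lig1, while of the 2 higher members neither passed every time. The median was -0.79 within slide 1 and -0.88 within slide 2.

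Intestine and spleen cells differed less in these genes. Of the 37, 12 were lower in intestine, 3 (E2f3, Orc2 and Lig1) were higher and 22 did not pass, in a comparison where 28.4% of all genes were called lower and 21% higher (49.4% in either direction), so that the share of members called, 32.4% lower and 8.11% higher, was near the background or under it. The median was -0.18 (all genes -0.04), and -0.16 and -0.24 within the slides. At least 2-fold lower were E2f2, Dnmt1 and Rpa3 (7.31% of all genes), and at least 2-fold higher was E2f3 (6.84%). Both intestine arrays lay below both spleen arrays in 17 members (41.8% of all genes) and above them in 10 (36%). Of the 32 members detected everywhere, 10 were lower and 3 higher (31.2% and 9.38%), beside 28.8% and 23.1% of 9374 such genes. Calls changed with the scaling, to 22 lower and 1 higher with the deposited scaling alone and 12 and 5 with median scaling. Under these the all-gene median was -0.25 and 0.11, and 25.8% and 58.5% of all calls were higher in place of 42.5%. Without either spleen array 7 were lower and 1 higher, and without intestine replicate II 5 were higher. Dnmt1, E2f2, Mcm4, Pola2, Rfc2, Rpa3 and Tyms (lower) and E2f3 (higher) passed whichever array was left out. With the slide as a block the counts were 13 and 4, Pole and Orc1 being added (adjusted p = 0.0409 and 0.0483), and no call was lost. The comparisons share arrays, spleen in this one and the first and skin in the others, so their values are set side by side and not counted as separate evidence.

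**Figure D1:**
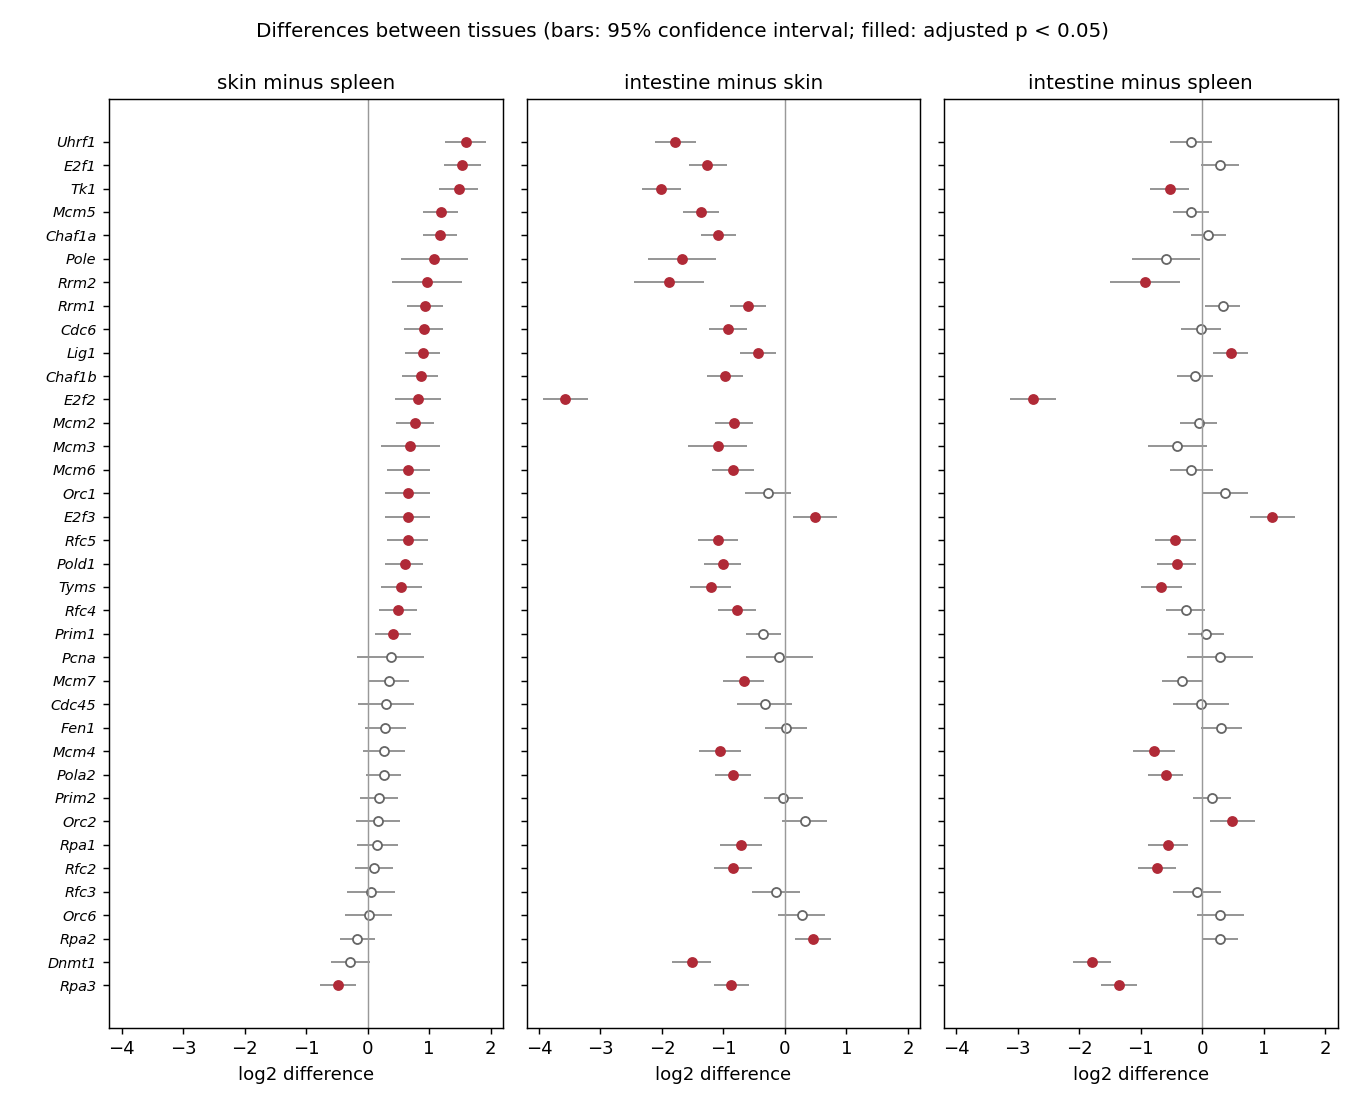
Log2 differences of the 37 members tested, ordered by the skin minus spleen difference, with 95% confidence intervals from limma (2 arrays per tissue) and filled points where the adjusted p was under 0.05. Most points lie right of 0 for skin minus spleen (22 filled right, 1 left), left of 0 for intestine minus skin (26 filled left, 2 right) and on both sides for intestine minus spleen (12 filled left, 3 right).

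By tissue means, 22 of the 37 members (59.5%) ran skin, spleen, intestine from high to low, an order held by 16.6% of all genes. In 14 of them the arrays of the 3 tissues did not overlap (7.54% of all genes). A further 8 members ran skin, intestine, spleen (15.2% of all genes), 4 of them without overlap (4.07%), and 4 ran intestine, skin, spleen (18.5%), 2 of them without overlap (7.43%). Dnmt1 and Rpa3 ran spleen, skin, intestine (25.5%) without overlap (12.5%), Rpa2 ran intestine, spleen, skin (13.6%) without overlap (5.18%), and no member ran spleen, intestine, skin (10.6%, and 2.4% without overlap). Over the 32 members detected on all arrays, the median level was 6.59 and 6.46 in spleen, 6.49 and 6.31 in gut and 7.10 and 7.04 in skin, where the median of all genes stayed between 5.69 and 5.75. The difference between replicate arrays varied over the members with an SD of 0.15 (spleen), 0.18 (skin) and 0.33 (intestine), so the intestine arrays were the least alike. The widest was Pole in intestine, 0.93 lower on array II. The fit shared 1 spread per gene across the 3 tissues. Standard errors may thus be too small where intestine is compared and too large for skin minus spleen.

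**Figure D2:**
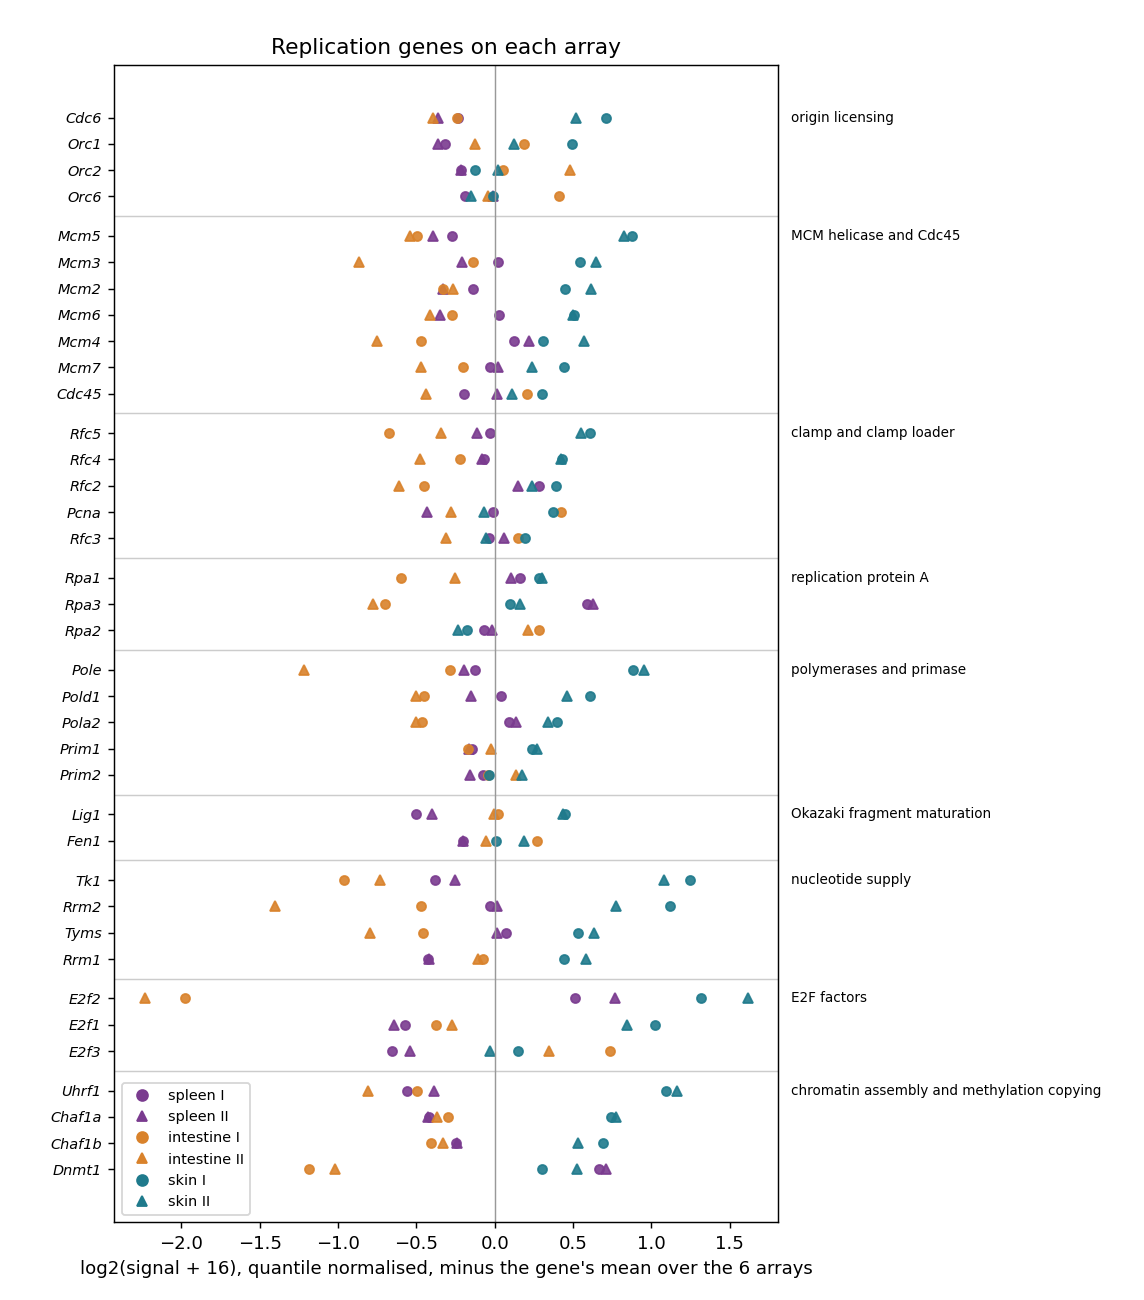
Level of each of the 37 members on the 6 arrays, as log2(signal + 16) after quantile normalisation minus the gene's mean over the arrays, grouped by role, with circles for replicate I and triangles for replicate II. Skin points (teal) lie to the right for the nucleotide supply genes, Uhrf1, E2f1 and Mcm5, while E2f3 and Rpa2 have their intestine points (orange) and Rpa3 and Dnmt1 their spleen points (purple) at the right.

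Among the 4 origin licensing genes tested, 2 were higher in skin than in spleen and 1 was lower in intestine than in skin. Cdc6, the ATPase that helps load the MCM helicase, read 4.94 and 4.81 in spleen, 4.93 and 4.78 in gut and 5.88 and 5.69 in skin. Both skin arrays stood about a log2 unit above the other 4, which overlapped. The skin minus spleen difference of Cdc6 was 0.91 ± 0.14 (adjusted p = 0.00329, and 0.0565 without spleen replicate II) and its intestine minus skin difference -0.93 ± 0.14 (adjusted p = 0.000604). Orc1, the subunit of the origin recognition complex that oscillates in the cell cycle, read 4.19 and 4.14 in spleen, 4.69 and 4.38 in gut and 5.0 and 4.63 in skin. It was detected on both skin arrays, 1 intestine array and no spleen array, and its level in skin was at least 1.34-fold that of spleen. Such a bound sets the bright tissue's mean against the lowest detected signal of the dim arrays, or against the probe's own value where that is higher. The skin minus spleen difference of Orc1 was 0.65 ± 0.17 (adjusted p = 0.0223), and 0.46 to 0.84 with 1 array left out. The call was lost without spleen replicate I or II or skin replicate I. Orc1 was kept only through its detection on both skin arrays, so the filter favoured this direction and the call is no support for it. Orc6, a smaller subunit of the complex, read 6.80 and 6.98 in spleen, 7.40 and 6.95 in gut and 6.98 and 6.84 in skin, with all tissues overlapping and no call. Orc2, a core subunit, read 4.60 on both spleen arrays, 4.87 and 5.30 in gut and 4.69 and 4.84 in skin. Its intestine minus spleen difference of 0.48 ± 0.16 passed (adjusted p = 0.0319), but not without spleen replicate I or II or intestine replicate II (0.143 to 0.148). Under its older symbol Cdt1, the partner of Cdc6 in loading, read 7.70 and 7.55 in spleen, 8.52 and 8.0 in gut and 8.07 and 7.82 in skin, and was higher in intestine than in spleen by 0.64 ± 0.18 (adjusted p = 0.0166). Intestine was thus not the lowest tissue for Orc2 or Cdt1.

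The MCM genes encode the 6 subunits of the replicative helicase ring, and 4 of them were higher in skin than in spleen while all 6 were lower in intestine than in skin. Mcm5 read 8.37 and 8.25 in spleen, 8.15 and 8.10 in gut and 9.52 and 9.47 in skin. Its arrays did not overlap between any tissues, with a wide step up to skin and a small one between spleen and intestine. The differences were 1.19 ± 0.13 for skin minus spleen (2.27-fold, adjusted p = 0.000624) and -1.37 ± 0.13 for intestine minus skin (adjusted p = 3.11e-05). Between intestine and spleen it was -0.18 ± 0.13, which did not pass (95% interval -0.47 to 0.11).
Mcm2 read 6.67 and 6.48 in spleen, 6.48 and 6.54 in gut and 7.26 and 7.42 in skin. Mcm6 read 8.29 and 7.91 in spleen, 7.99 and 7.85 in gut and 8.77 and 8.76 in skin. Mcm3 read 5.56 and 5.33 in spleen, 5.40 and 4.67 in gut and 6.08 and 6.18 in skin. In these 3 subunits skin stood above the other tissues, which overlapped. Skin exceeded spleen by 0.77 ± 0.14 in Mcm2 (adjusted p = 0.00589, and 0.0835 without spleen replicate II), by 0.66 ± 0.16 in Mcm6 (0.0162, and 0.0558 to 0.171 without spleen replicate II or either skin array) and by 0.69 ± 0.22 in Mcm3 (0.044, and 0.121 to 0.228 without any one spleen or skin array). Intestine lay below skin in the same genes, at -0.83 ± 0.14, -0.84 ± 0.16 and -1.09 ± 0.22 (adjusted p = 0.00102, 0.00189 and 0.00274).
Mcm4 and Mcm7 were not called between skin and spleen. Mcm4 read 9.36 and 9.46 in spleen, 8.77 and 8.49 in gut and 9.55 and 9.81 in skin. Its intestine arrays were lowest, by -0.78 ± 0.15 against spleen and -1.05 ± 0.15 against skin (adjusted p = 0.00226 and 0.000474), and its skin minus spleen difference of 0.27 ± 0.15 did not pass. A second, dimmer Mcm4 probe gave -0.56, -0.11 and -0.45 for these differences in turn. Mcm7 read 7.33 and 7.38 in spleen, 7.16 and 6.89 in gut and 7.80 and 7.60 in skin. Skin was highest, intestine lowest and spleen between them without overlap, and Mcm7 passed only for intestine minus skin (-0.67 ± 0.15, adjusted p = 0.00495), where a second probe gave -1.06. Cdc45, which binds the active helicase, read 4.28 to 5.02 over all arrays, was detected on 5 and passed in no comparison.

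Replication factor C loads the sliding clamp PCNA, which tethers polymerases to DNA. Of these 5 genes tested, 2 were higher in skin than in spleen and 3 lower in intestine than in skin. Rfc4 read 6.95 and 6.94 in spleen, 6.80 and 6.54 in gut and 7.45 and 7.44 in skin. Rfc5 read 6.51 and 6.43 in spleen, 5.87 and 6.20 in gut and 7.15 and 7.09 in skin. Both genes were highest in skin and lowest in intestine without overlap. Skin exceeded spleen by 0.50 ± 0.14 in Rfc4 (adjusted p = 0.0295, and 0.0833 to 0.178 without any one spleen or skin array) and by 0.65 ± 0.15 in Rfc5 (0.0147, and 0.0813 to 0.124 without spleen replicate I or II or skin replicate I). For both, a dimmer probe gave the opposite sign (-0.24 and -0.73), and averaging the probes left -0.04 for Rfc5. Intestine fell below skin by -0.78 ± 0.14 and -1.09 ± 0.15 (adjusted p = 0.00162 and 0.000294), where the dimmer probes gave -0.06 and 0.05.
Rfc2 read 9.15 and 9.02 in spleen, 8.42 and 8.26 in gut and 9.26 and 9.11 in skin, so that only intestine stood apart, by -0.74 ± 0.14 from spleen and -0.84 ± 0.14 from skin (adjusted p = 0.00163 and 0.000974). Rfc1, the large subunit, under its older symbol read 6.26 and 6.27 in spleen, 5.86 and 6.33 in gut and 6.77 and 6.94 in skin. It passed for skin minus spleen (0.59 ± 0.17, adjusted p = 0.033) and intestine minus skin (-0.76 ± 0.17, adjusted p = 0.00534). Pcna itself passed nowhere. Its probe read 5.56 and 5.14 in spleen, 5.99 and 5.29 in gut and 5.94 and 5.50 in skin, with array II below array I in every tissue. Its 95% intervals were -0.17 to 0.92 for skin minus spleen, -0.25 to 0.83 for intestine minus spleen and -0.63 to 0.46 for intestine minus skin. Rfc3 read 5.19 to 5.69 over all arrays with all tissues overlapping.

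The 3 subunits of replication protein A, which coats single-stranded DNA, went 3 ways. Rpa1, the large DNA-binding subunit, read 10.62 and 10.56 in spleen, 9.86 and 10.20 in gut and 10.74 and 10.76 in skin. Intestine was lowest, by -0.56 ± 0.15 against spleen (adjusted p = 0.011, and 0.0542 to 0.0795 without spleen replicate I or II, and lost with median scaling) and by -0.71 ± 0.15 against skin (0.00366). Rpa3, the smallest subunit, read 7.79 and 7.83 in spleen, 6.50 and 6.42 in gut and 7.30 and 7.36 in skin. Spleen was highest and the tissues did not overlap. Rpa3 was the 1 member lower in skin than in spleen (-0.48 ± 0.13, adjusted p = 0.0265), which passed no longer without any one spleen or skin array (0.0644 to 0.182), and it lay lower in intestine than in spleen by -1.35 ± 0.13 (2.55-fold, adjusted p = 2.53e-05). Rpa2, the subunit that checkpoint kinases phosphorylate, read 7.17 and 7.22 in spleen, 7.52 and 7.45 in gut and 7.06 and 7.0 in skin. Here intestine was highest, 0.46 ± 0.13 above skin (adjusted p = 0.0167, and 0.0749 without skin replicate II), and its other probes gave 0.53 and 0.67.

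Of the polymerase and primase genes tested, 3 of 5 were higher in skin than in spleen and 3 lower in intestine than in skin. Pole, the catalytic subunit of the leading-strand polymerase epsilon, read 5.31 and 5.24 in spleen, 5.15 and 4.22 in gut and 6.32 and 6.39 in skin. Its skin arrays lay about a log2 unit above spleen, and 1 of the intestine arrays had no detected signal. The differences were 1.08 ± 0.25 for skin minus spleen (adjusted p = 0.0145, and 0.0644 to 0.0908 without any one spleen or skin array) and -1.67 ± 0.25 for intestine minus skin (0.000488). Pold1, the catalytic subunit of polymerase delta, read 8.53 and 8.34 in spleen, 8.04 and 7.99 in gut and 9.10 and 8.95 in skin. Tissues did not overlap, and all 3 differences passed, with 0.60 ± 0.14 for skin minus spleen (0.0155, and 0.0771 to 0.153 without spleen replicate I or II or skin replicate I), -1.01 ± 0.14 for intestine minus skin (0.000299) and -0.42 ± 0.14 for intestine minus spleen (0.0296, and 0.0681 to 0.225 without spleen replicate I or II or intestine replicate II).
Pola2, the regulatory subunit of polymerase alpha, read 6.26 and 6.31 in spleen, 5.71 and 5.67 in gut and 6.57 and 6.51 in skin. Intestine lay below spleen by -0.59 ± 0.13 and below skin by -0.85 ± 0.13 (adjusted p = 0.00374 and 0.000553), while skin and spleen were not told apart (0.26 ± 0.13). Prim1, the small primase subunit, rose from 4.97 in spleen to 5.38 in skin (0.41 ± 0.13, adjusted p = 0.0469, and 0.124 to 0.26 without any one spleen or skin array). Prim2, the large primase subunit, read 5.39 and 5.31, 5.42 and 5.6, and 5.43 and 5.64 in spleen, intestine and skin, and passed nowhere.

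Okazaki fragments are trimmed by the flap nuclease Fen1 and joined by DNA ligase 1. Lig1 read 6.19 and 6.29 in spleen, 6.71 and 6.69 in gut and 7.14 and 7.13 in skin. Skin was highest and spleen lowest without overlap. Skin minus spleen was 0.90 ± 0.13 (adjusted p = 0.00216), intestine minus spleen 0.46 ± 0.13 (0.0143, and 0.0658 to 0.128 without spleen replicate I or II) and intestine minus skin -0.44 ± 0.13 (0.0209, and 0.0515 to 0.0763 without any one spleen or skin array). The 2 other Lig1 probes gave 0.18 and 0.14 for skin minus spleen, 0.23 and -0.23 for intestine minus spleen and 0.05 and -0.38 for intestine minus skin, and with the mean of the probes none of these 3 calls held. Fen1 read 7.77 on both spleen arrays, 8.24 and 7.92 in gut and 7.98 and 8.16 in skin. It was lowest in spleen and passed in no comparison, with an intestine minus skin difference of 0.01 (95% interval -0.33 to 0.35).

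All 4 nucleotide supply genes tested were higher in skin than in spleen and lower in intestine than in skin. Tk1, the thymidine kinase of S phase, read 5.35 and 5.48 in spleen, 4.77 and 5.0 in gut and 6.98 and 6.81 in skin. Skin stood well above spleen, and intestine below it, with no overlap. Its differences were 1.48 ± 0.14 for skin minus spleen (2.79-fold, adjusted p = 0.000429), -2.01 ± 0.14 for intestine minus skin (4.03-fold lower in intestine, 5.29e-06) and -0.53 ± 0.14 for intestine minus spleen (0.0129, and 0.0601 to 0.129 without spleen replicate I or II), and a second probe gave 1.27, -1.85 and -0.58.
Rrm2, the regulated subunit of ribonucleotide reductase, read 5.13 and 5.18 in spleen, 4.69 and 3.76 in gut and 6.28 and 5.94 in skin, in steps without overlap and with 1 intestine array not detected. Skin minus spleen was 0.96 ± 0.25 (adjusted p = 0.0253, and 0.124 to 0.139 without spleen replicate I or II or skin replicate I), intestine minus skin -1.89 ± 0.25 (0.000284) and intestine minus spleen -0.93 ± 0.25 (0.0131, and 0.0569 to 0.0689 without spleen replicate I or II). A second Rrm2 probe gave smaller differences of 0.27, -0.43 and -0.16 in the same order. Rrm1, the large catalytic subunit, read 6.88 and 6.89 in spleen, 7.23 and 7.20 in gut and 7.75 and 7.89 in skin. Unlike Rrm2 its intestine arrays lay above those of spleen, by 0.33 ± 0.13, which did not pass (adjusted p = 0.0586). Skin exceeded spleen in Rrm1 by 0.93 ± 0.13 (adjusted p = 0.00196) and intestine lay below skin by -0.60 ± 0.13 (0.00457).
Tyms, which makes thymidylate, read 6.13 and 6.07 in spleen, 5.6 and 5.26 in gut and 6.59 and 6.69 in skin. The tissues were separate. Skin exceeded spleen by 0.54 ± 0.15 (adjusted p = 0.0291, and 0.0913 to 0.18 without any one spleen or skin array), and intestine was lower by -1.21 ± 0.15 than skin and by -0.67 ± 0.15 than spleen (0.00017 and 0.00474). Of its other 2 probes 1 gave 0.53 and the other, dimmest, -0.15 for skin minus spleen, and they gave -1.21 and -0.13 for intestine minus skin. Dut, the dUTPase, found under its older symbol, read 4.32 to 4.87 over the arrays and passed nowhere.

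The 3 E2F factors tested were each higher in skin than in spleen and differed from one another in intestine. E2f1, an activator of the S phase genes, read 5.02 and 4.95 in spleen, 5.22 and 5.32 in gut and 6.62 and 6.44 in skin. Skin alone was high, with 1.54 ± 0.14 over spleen (2.91-fold, adjusted p = 0.000307) and intestine at -1.26 ± 0.14 from skin (7.25e-05). E2f2, a second activator, read 6.86 and 7.11 in spleen, 4.37 and 4.11 in gut and 7.66 and 7.96 in skin. In intestine its probe was detected on neither array, so that the level there was at least 9.53-fold lower than in skin (adjusted p = 4.26e-07) and at least 5.38-fold lower than in spleen (1.44e-06). A second kept probe gave -1.83 and -1.07. The filter kept E2f2 through spleen and skin, where it was detected, so its low level in intestine was partly set by the filter. Skin exceeded spleen in E2f2 by 0.82 ± 0.17 (adjusted p = 0.00927, and 0.0507 to 0.101 without spleen replicate I or skin replicate II).
E2f3, the third activator, ran against E2f2, at 5.19 and 5.30 in spleen, 6.58 and 6.19 in gut and 5.99 and 5.81 in skin. Its intestine arrays were highest and its spleen arrays lowest. The intestine minus spleen difference was 1.14 ± 0.16 (2.21-fold, adjusted p = 0.0003), the skin minus spleen difference 0.65 ± 0.16 (0.0199, and 0.108 to 0.153 without spleen replicate I or II or skin replicate I) and the intestine minus skin difference 0.49 ± 0.16 (0.0341, and 0.059 to 0.163 without any one array other than intestine replicate II). A dimmer E2f3 probe gave -0.39, 0.03 and -0.41 in the same order, so that probes of this gene differed in direction for intestine.

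The last group copies chromatin and DNA methylation behind the fork, and all 4 members were lower in intestine than in skin while 3 were higher in skin than in spleen. Uhrf1, which recognises hemimethylated DNA and recruits Dnmt1, read 6.77 and 6.94 in spleen, 6.83 and 6.52 in gut and 8.42 and 8.49 in skin. Skin stood far above the others, which overlapped. Its skin minus spleen difference of 1.60 ± 0.15 (3.03-fold, adjusted p = 0.000402) was the widest rise of any member, and intestine minus skin was -1.78 ± 0.15 (1.48e-05). Dnmt1, the maintenance methyltransferase itself, did not share that course. It read 7.67 and 7.72 in spleen, 5.82 and 5.99 in gut and 7.31 and 7.53 in skin, with only intestine low. Dnmt1 was lower in intestine than in spleen by -1.79 ± 0.14 (3.46-fold, adjusted p = 7.73e-06) and than in skin by -1.51 ± 0.14 (2.77e-05), and skin minus spleen was -0.28 ± 0.14, which did not pass (0.17).
Chaf1a, the large subunit of chromatin assembly factor 1, read 4.87 and 4.86 in spleen, 4.99 and 4.92 in gut and 6.03 and 6.06 in skin. Chaf1b, its middle subunit, read 5.64 and 5.65 in spleen, 5.48 and 5.56 in gut and 6.58 and 6.42 in skin. Both were high in skin and nearly level in the other tissues. Skin exceeded spleen by 1.18 ± 0.13 in Chaf1a and 0.86 ± 0.13 in Chaf1b (adjusted p = 0.000605 and 0.00312), and intestine lay below skin by -1.09 ± 0.13 and -0.98 ± 0.13 (0.000118 and 0.000288). Between intestine and spleen they differed by 0.09 ± 0.13 and -0.12 ± 0.13, with 95% intervals of -0.19 to 0.38 and -0.42 to 0.17.

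**Figure D3:**
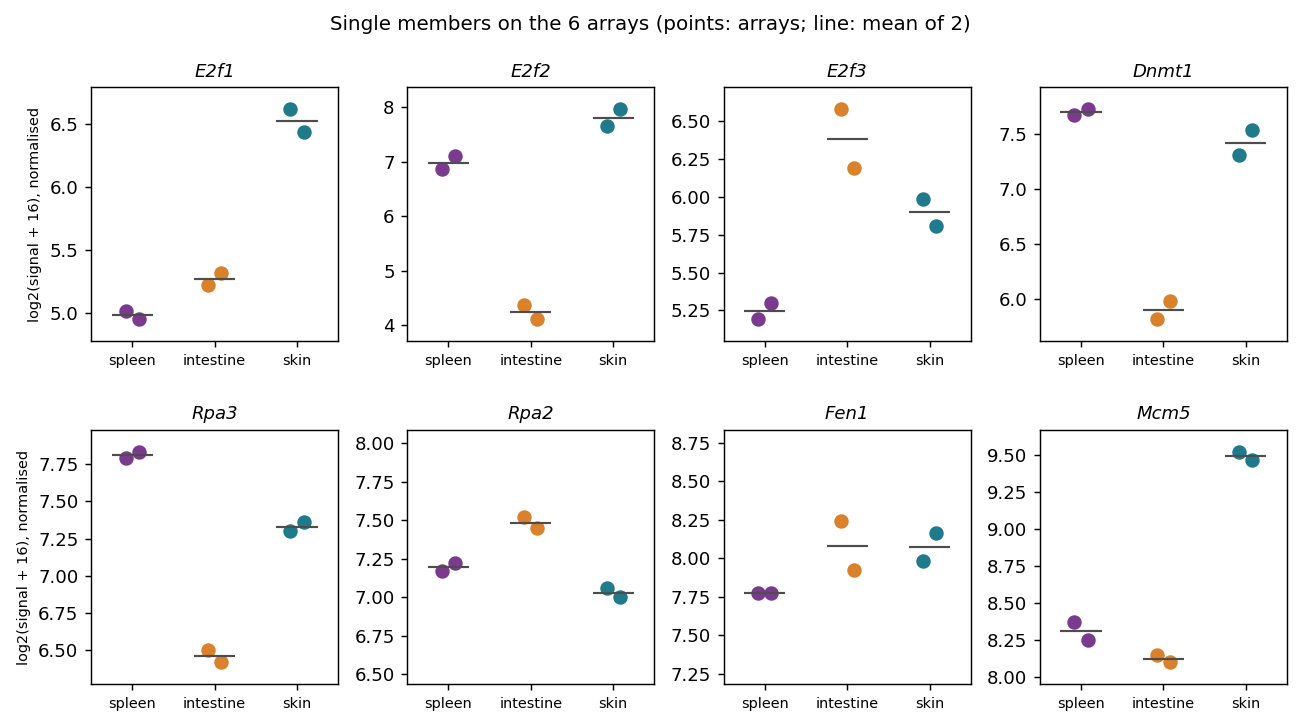
Levels of 8 members on each array as log2(signal + 16) after quantile normalisation, with a point per array and a line at the mean of 2, each panel on its own axis. E2f1 and Mcm5 are high in skin alone, E2f2 and Dnmt1 low in intestine, E2f3 and Rpa2 highest in intestine, Rpa3 highest in spleen, and Fen1 lowest in spleen without passing in any comparison.

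A list of 52 further replication genes, none of them a member, gave 43 tested genes. Of these, 12 were higher and 2 lower in skin than in spleen (27.9% and 4.65%, against 13.1% and 11.5% of all genes). Their median was 0.13, which became -0.09 with the deposited scaling. In intestine 24 were lower and 5 higher than in skin (55.8% and 11.6%, against 22.9% and 16.4%, median -0.58). Against spleen 21 were lower and 5 higher in intestine (48.8% and 11.6%, against 28.4% and 21%, median -0.36). The largest rises in skin were Clspn, the checkpoint mediator claspin (1.26 ± 0.15, adjusted p = 0.000969), Cdca7 (1.21 ± 0.18, 0.00272), Gins2, a subunit of the GINS part of the helicase (1.21 ± 0.13, 0.000549), and Chtf18, of an alternative clamp loader (1.14 ± 0.24, 0.0104). Below skin, intestine had Clspn (-2.14 ± 0.15, 4.66e-06), Cdca7 (-1.69 ± 0.18), the histone chaperone Asf1b (-1.63 ± 0.16) and the ribonuclease subunit Rnaseh2b (-1.52 ± 0.13). Dbf4, the activating subunit of the Cdc7 kinase that fires origins, went the other way. Its deposited signals were 116 and 127 in spleen, 244 and 173 in gut and 107 and 99.2 in skin, and it was higher in intestine than in spleen by 1.08 ± 0.16 (adjusted p = 0.000468). Of the same list Orc5 (-1.07 ± 0.16), Gins3 (-1.17 ± 0.19) and Rnaseh2b (-1.36 ± 0.13) were lower in intestine than in spleen.

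Genes that control entry into S phase were mixed. Of 30 listed and 22 tested, 5 were higher and none lower in skin than in spleen (22.7% and 0%, against 13.1% and 11.5% of all genes). In intestine 11 were lower and 5 higher than in spleen (50% and 22.7%, against 28.4% and 21%). Against skin 10 were lower and 5 higher in intestine (45.5% and 22.7%, against 22.9% and 16.4%). The shares called higher in intestine were thus near the background or a little over it. With the deposited scaling alone 4 were higher and 3 lower in skin than in spleen, and with median scaling 9 were lower and 7 higher in intestine than in spleen. Cdkn1a, which encodes the cyclin-dependent kinase inhibitor p21, had deposited signals of 32.5 and 41.0 in spleen, 1110 and 712 in gut and 60.5 and 61.9 in skin. Both intestine arrays were more than 10 times brighter than any other array. Its differences were 4.36 ± 0.18 for intestine minus spleen (adjusted p = 1.86e-07), 3.57 ± 0.18 for intestine minus skin (6.59e-07) and 0.79 ± 0.18 for skin minus spleen (0.0149). Cdkn1c, which encodes the inhibitor p57, was higher in intestine by 1.76 ± 0.22 than in spleen and by 1.85 ± 0.22 than in skin (0.000151 and 0.000136). Rb1, the retinoblastoma gene, was higher in intestine than in spleen by 1.3 ± 0.14 (6.11e-05) and in skin than in spleen by 0.86 ± 0.14 (0.00431), while the cyclin gene Ccnd3 was lower in intestine than in spleen by -1.17 ± 0.15 (0.000163).

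Mitosis and spindle genes ran with the replication genes and further. Of 41 listed, 31 were tested, and 23 were higher and 0 lower in skin than in spleen (13.1% and 11.5% of all genes). The median was 1.13, and 19 of them were at least 2-fold higher (1.43% of all genes). With the other scalings 22 to 27 were higher and 0 lower. In intestine 26 were lower and 1 higher than in skin (22.9% and 16.4% of all genes, median -1.64). Against spleen 22 were lower and 2 higher in intestine (28.4% and 21%, median -0.74). Cdca3, a trigger of mitotic entry, had deposited signals of 99.6 and 116 in spleen, 40.5 and 34.0 in gut and 407 and 382 in skin, and differed by 2.0 ± 0.14 for skin minus spleen (adjusted p = 0.000106) and -2.81 ± 0.14 for intestine minus skin (7.38e-07). Mki67, the proliferation marker Ki-67, had 63.8 and 90.5 in spleen, 34.6 and 19.4 in gut and 232 and 262 in skin. Birc5 (survivin), Kif22 and Nusap1 of the spindle were also lower in intestine than in skin, by -2.85 ± 0.19, -2.67 ± 0.16 and -2.83 ± 0.15. Cenpa, the centromeric histone, was the gene higher in intestine than in both other tissues, with signals of 1460 and 1540 there, 467 and 532 in spleen and 730 and 760 in skin (1.69 ± 0.14 over spleen, adjusted p = 1.1e-05). The median of the mitotic genes was farther from 0 than that of the replication members in all 3 comparisons. The lists were chosen for their function with earlier results of these data known, and no test was run between them.

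**Figure D4:**
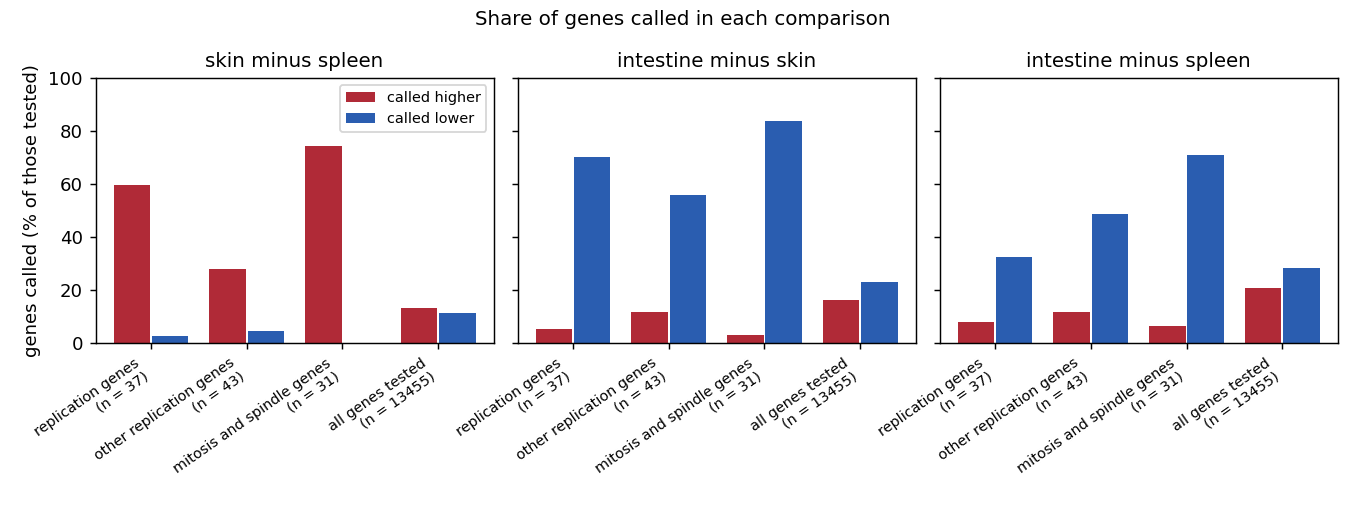
Share of the tested genes called higher (red) or lower (blue) in each comparison, in percent, for the 37 replication genes, 43 other replication genes, 31 mitosis and spindle genes and all 13455 genes. For skin minus spleen 59.5% of the replication genes were called higher against 13.1% of all genes, and for intestine minus spleen 32.4% were called lower against 28.4%.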

How the data were processed

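Per the labels' protocols, total RNA of sorted cells (RNeasy Micro Kit) was amplified and biotin-labelled (Illumina TotalPrep-96) and hybridised to Illumina mouse BeadChips, 2 arrays for each of 3 tissues. BeadStudio 1.5.1.3 is the software that the submitters' processing notes list. Per the file headers the deposited signal is the average bead intensity of a probe. In the deposited values 30.66% to 32.73% of the intensities of an array lie below 0 and every array has a mean of 83.1, so that background had been subtracted and arrays scaled before deposit, by methods not given in those sources. Each signal has a deposited detection p-value, named so per the file headers, whose computation is likewise not given. A value table of the series, deposited by the authors, holds the same intensities before scaling and served as an alternative.

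An offset of 16 was added, log2 taken and the arrays quantile normalised. A probe was kept if some tissue had it detected (p under 0.01) on both arrays (18583, of which 18187 carried a symbol), and the brightest stood for its gene. A probe detected in 1 tissue alone was kept through that tissue, so its direction against the others was largely set by the filter. The fit used limma 3.58.1 (lmFit and eBayes, R 4.3.3) on all 6 arrays with 3 residual degrees of freedom, and Benjamini-Hochberg adjustment over 13455 genes. Groups of 2 arrays limit the precision, and the median standard error of the intestine minus spleen difference was 0.149. The script was tested on simulated data with known answers. It recovered 13 of 50 skin minus spleen log2 changes of 0.5 and 50 of 50 changes of 1. Among the unchanged genes 13 were called falsely in that comparison. Far fewer genes were changed there than were called in the data, so these shares do not carry over exactly.

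The members and gene lists were chosen with earlier results of these data known. Values on every array are given for members called with an absolute difference of at least 0.5 and for up to 2 further bright members per role, and of each other list up to 4 called genes with the largest difference could be named per comparison. Older symbols were translated with the RefSeq gene table (assembly GRCm38.p6, names only). By the array names replicate I of each tissue lay on slide 1 and replicate II on slide 2, so the replicate number marks a shared slide. Deviations of same-numbered arrays from their tissue means correlated at 0.156 (spleen and intestine), 0.211 (spleen and skin) and 0.113 (intestine and skin). The slide as a block, other scalings, offsets, filters and probe rules, and leaving out each array were tried as alternatives.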

Additional observations from a re-analysis of the deposited data

How the results depend on the processing

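Each member was refitted under 14 or 15 alternatives per comparison. Of 550 values, 525 kept their direction and side of the threshold for intestine minus skin (17 lost and 8 gained a call), 495 for intestine minus spleen (28 lost, 27 gained) and 474 for skin minus spleen (71 lost, 4 gained, 1 reversed). The reversed value was the skin minus spleen difference of Rfc5, -0.04 with the mean of all kept probes; its dimmer probe had the opposite sign. With the deposited scaling alone, members counted 22 lower and 1 higher in intestine than in spleen, 3 lower in skin than in spleen and 0 higher in intestine than in skin, with medians of -0.51 (intestine minus spleen), 0.38 (skin minus spleen) and -0.97 (intestine minus skin). With median scaling 5 were higher in intestine than in spleen and the skin minus spleen median was 0.61. An offset of 50 gave medians of 0.38 (skin minus spleen) and -0.63 (intestine minus skin), and an offset of 4 gave 0.64 and -0.93, with 0 members lower in skin than in spleen and 1 higher in intestine than in skin. Without a filter on detection the medians were -0.11 (intestine minus spleen) and 0.52 (skin minus spleen), with 0 members lower in skin and 1 higher in intestine than in skin. Requiring detection on all 6 arrays gave 0.52 for skin minus spleen. The mean of all kept probes gave 0.41 (skin minus spleen) and -0.77 (intestine minus skin), with 1 member higher in intestine than in skin. Within slides 1 and 2 the skin minus spleen median was 0.50 and 0.51. With the replicate block, which pairs arrays of a slide, the counts were 22 higher and 1 lower (skin against spleen), 2 and 26 (intestine against skin) and 4 and 13 (intestine against spleen), and no call was lost.

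Leaving out 1 array at a time gave 9 to 22 members higher and 0 to 1 lower in skin than in spleen (median 0.51 to 0.64), 0 to 3 higher in intestine than in skin, and 1 to 5 higher and 7 to 15 lower in intestine than in spleen (median -0.28 to -0.10). A tissue left with 1 array was assumed to vary like the others. Signal over background was lowest on the intestine and skin arrays, so dim members such as Orc1, Cdc45, Pole and Rrm2 are measured least well there.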
